A study of Mus musculus with 8 samples.

Results

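The matricellular genes of bone were followed in mouse bone marrow mesenchymal stem cells (MSCs) that carried or lacked the m6A methyltransferase gene Mettl3. The set was chosen by gene name and held 10 of the 47643 named genes in the expression table, namely Spp1, Sparc, Sparcl1, Postn, Tnc, Thbs1, Thbs2, Thbs3, Smoc1 and Smoc2. All 10 had enough reads to be tested. The MSCs came from C57BL/6 mice and were flushed from tibiae and femurs. Gene expression was measured by RNA-seq in 4 libraries, 2 labelled wild type (WT) and 2 labelled conditional knockout (cKO). The WT mice were Mettl3fl/fl, so they carried the floxed allele without Cre, and the cKO mice were Prx1-Cre;Mettl3fl/fl, in which the promoter of Prrx1 drives Cre in limb mesenchyme and exons 2 and 3 of Mettl3 are removed. All cultures had been kept for 2 days in osteogenic medium, which held dexamethasone at 100 nM, β-glycerophosphate at 5 mM and ascorbic acid at 50 µg/ml. The age of the mice that gave these libraries is not given in the sources used here. m6A was mapped in WT MSCs only, by sequencing of RNA fragments pulled down with an m6A antibody (2 immunoprecipitated and 2 input samples), so that the sites, but not their change in cKO cells, were measured.

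Matricellular proteins are secreted into the extracellular matrix, where they act on cells and on matrix assembly and do not serve as its main load-bearing fibres. In bone they are made largely by cells of the osteoblast lineage, and several bind mineral, collagen, integrins or growth factors. N6-methyladenosine (m6A) is a mark that the METTL3 complex places on adenosines of mRNA, preferably within short motifs such as GGAC, and it is read by proteins that act on the decay, splicing and translation of the mRNA.

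The m6A peak list held 13 peaks whose summit lay within 6 of the 10 genes. Tnc had 4, Spp1 had 3, Sparcl1 and Thbs1 had 2 each, and Thbs2 and Postn had 1 each. Sparc, Smoc1, Smoc2 and Thbs3 had none in the list. The 30-base windows below are from the mm9 genome on the strand of the transcript, 5′ to 3′. There is 1 for each of 5 genes with a peak (Spp1, Sparcl1, Thbs1, Tnc and Postn). Each lies within a peak of its gene, but its place in the peak was set by the rule below and not by the m6A data. Capitals mark GGAC, the motif letters searched, in the most significant peak of the gene that held it, at the copy nearest the summit. The A of that copy lay 1 base from the summit for Spp1, 16 for Sparcl1, 89 for Thbs1 and 98 for Tnc. Of the windows with a marked GGAC, only that of Spp1 held its summit. Postn had no GGAC in its peak, and there the capitals mark the first bases of its last exon. The Postn window held the summit of its peak, at chr3:54194178. The windows lie at chr5:104865380-104865409 (Spp1, + strand, A of GGAC in the 5′UTR), chr5:104521681-104521710 (Sparcl1, − strand, coding, exon 4 of 11), chr2:117951292-117951321 (Thbs1, + strand, 3′UTR, exon 22 of 22), chr4:63678207-63678236 (Tnc, − strand, coding, exon 2 of 26) and chr3:54194164-54194193 (Postn, + strand, intron and last exon). The Spp1 window runs past an exon edge and is thus partly intron, and only the A of its GGAC was placed in the exon.
Spp1: aaaatatgttgcaGGACtaactacgaccat
Sparcl1: atacagagcagcaGGACcaagaagggaaag
Thbs1: aatcattttcaggGGACagacagacttgct
Tnc: ggcgctgtccccgGGACtgtagccagcggg
Postn: tctcatttccttctcctcagGGCCTAGAAG

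The 4 RNA-seq libraries held 23978099 to 34106693 counted reads. The cKO pair was nearly identical, with a chi-square over genes of 1.82 times its degrees of freedom against 32.6 for the WT pair, and nothing in the labels says that the libraries came from separate mice or cultures, so that p-values measure only the spread between these libraries. Mettl3 itself stood at 17.6 and 16.9 CPM (counts scaled to 1000000 reads per library) in the WT-labelled and 17.5 and 16.3 CPM in the cKO-labelled libraries (log2 fold change −0.03, SE 0.0929, adjusted p = 0.824), and since gene counts include the exons that are not deleted, they do not show the deletion and every direction below rests on the labels. The cultures also held macrophage transcripts. The 8 macrophage markers summed to 15213 to 20355 CPM, most of it Lyz2, against 891 to 1071 CPM for the 8 stromal markers, and both WT and cKO libraries had all 8 stromal markers.

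Of the 10 matricellular genes, 4 were higher in the cKO-labelled libraries (Sparcl1, Tnc, Thbs3 and Smoc1), 4 were lower (Smoc2, Sparc, Postn and Thbs2), and Spp1 and Thbs1 did not pass the test. Each gene was tested with edgeR (quasi-likelihood F test), p-values were adjusted over 15327 genes by the method of Benjamini and Hochberg, and a gene was called at an adjusted p under 0.05. Across all genes tested 30.5% were called, 13.7% higher and 16.8% lower. In 9 of the 10 genes the groups did not overlap in CPM, 4 with both cKO libraries above and 5 below, against 68.9% of all genes tested (33.9% above and 35.0% below). The median log2 fold change of the 10 genes was −0.14, that of all genes −0.0038. The study's criterion for its gene lists was an unadjusted p under 0.05 and a fold change of at least 2, applied to Ballgown results. With these cutoffs on the edgeR values, 3 of the 10 genes passed (Sparcl1, Sparc and Smoc2), against 10.5% of all genes. In bulk libraries, fewer cells that make a transcript and less of it per cell cannot be told apart.

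**Figure D1:**
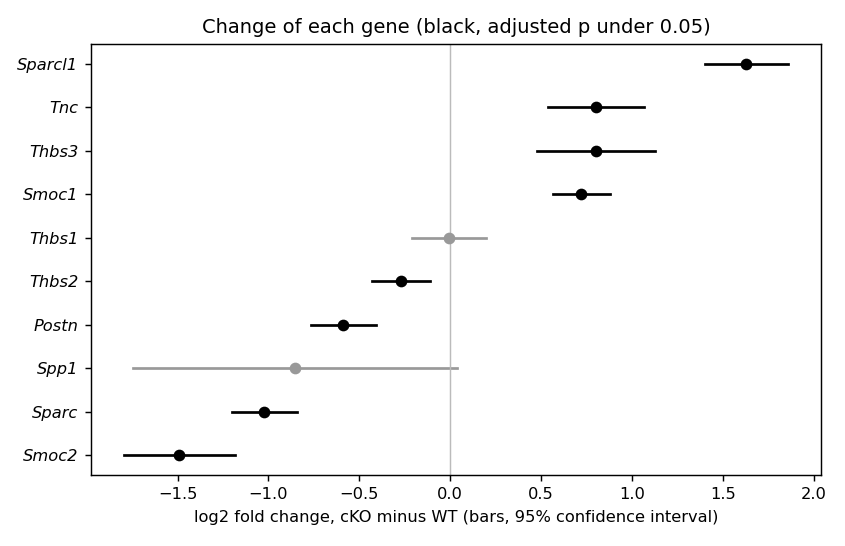
Change of each gene between the cKO-labelled and WT-labelled libraries as log2 fold change of TMM-normalised counts (horizontal axis), with bars for the 95% confidence interval and black points for genes with an adjusted p under 0.05. Sparcl1 stood highest at 1.63 and Smoc2 lowest at −1.49, and the intervals of Spp1 and Thbs1 reached across 0.

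Levels are compared between genes in TPM, a unit that divides counts by transcript length before scaling each library to the same total. In the WT libraries the order of mean TPM was Spp1 (11438), Sparc (2378), Thbs1 (563), Postn (343), Thbs2 (60.1), Smoc2 (19.0), Tnc (18.6), Smoc1 (14.9), Thbs3 (7.59) and Sparcl1 (4.80). Smoc2 and Tnc overlapped between libraries and did not differ beyond their spread, and the other neighbours in that order did not overlap. In the cKO libraries the first 5 places were the same, at 6824, 1253, 600, 245 and 53.3 TPM. Of the last 5 places, that of Thbs3 was the same and the other 4 differed, with Tnc at 34.7 TPM, Smoc1 at 26.3 TPM, Sparcl1 at 15.9 TPM, Thbs3 at 12.1 TPM and Smoc2 at 7.25 TPM. The 10 genes together took 1.30% and 2.17% of all counts in the WT and 1.11% and 1.09% in the cKO libraries. Without Spp1 the share was 0.717% and 0.724% in the WT and 0.530% and 0.528% in the cKO libraries.

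**Figure D2:**
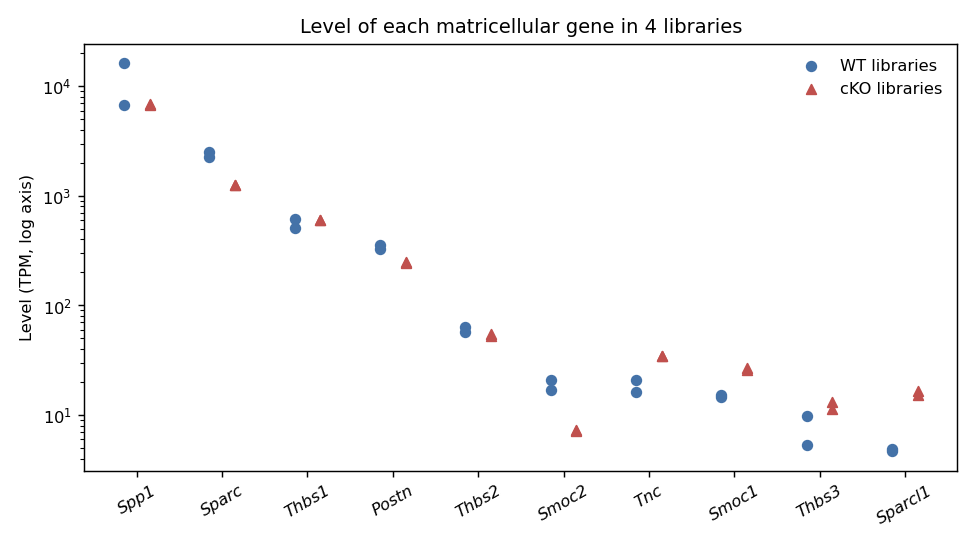
Level of each gene in the 4 libraries in TPM on a log axis, with blue circles for the WT-labelled and red triangles for the cKO-labelled libraries. The genes are ordered by their WT mean, from Spp1 at 11438 TPM to Sparcl1 at 4.80 TPM, and the cKO triangles fall on both sides of the WT circles.

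Sparc (ENSMUSG00000018593) encodes osteonectin, a calcium- and collagen-binding glycoprotein that is among the most abundant non-collagenous proteins of bone. It lies on the minus strand of GRCm38 chr11:55394500-55420080, with no overlapping gene. Its level was 3402 and 3860 CPM in the WT and 1780 and 1796 CPM in the cKO libraries (3631 ± 324 against 1788 ± 11.2, SD, n = 2 each). Both cKO libraries were far below both WT libraries. The level was 2.03-fold lower in cKO (log2 fold change −1.02, SE 0.0749, 95% CI −1.20 to −0.84, adjusted p = 0.000265). By TPM, Sparc ranked 62 and 46 among all genes in the WT and 113 and 111 in the cKO libraries.

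Sparcl1 (ENSMUSG00000029309, hevin, GRCm38 chr5:104079111-104113733, minus strand) is a close relative of Sparc with an added acidic stretch, known as an anti-adhesive protein of vessels and brain. It moved the other way. Counts were 319 and 259 in the WT and 670 and 953 in the cKO libraries, or 9.44 and 9.16 against 27.7 and 29.9 CPM. Both cKO libraries were above both WT libraries, and the level was 3.09-fold higher (log2 fold change 1.63, SE 0.0943, 95% CI 1.40 to 1.86, adjusted p = 0.0001045). With both changes, the ratio of Sparc to Sparcl1 in TPM was 458 and 535 in the WT and 81.6 and 76.2 in the cKO libraries. Of 6 endothelial markers, 4 were tested and 3 were higher in cKO, namely Kdr, Emcn and Vwf (log2 fold changes 2.14, 3.47 and 0.44, the last turning to −0.24 on log2(TPM + 0.1)), while the defining markers Pecam1 and Cdh5 were near 0 in every library. Pecam1 was at 0.266 and 0.248 CPM in the WT and 0.165 and 0.157 CPM in the cKO libraries, too few counts to be tested. Cdh5 was at 0.414 and 0.389 CPM in the WT and 0.165 and 0.188 CPM in the cKO libraries and was not called (log2 fold change −1.16, adjusted p = 0.128). Tek, the other marker with too few counts to be tested, was at 0.207 and 0.0708 CPM in the WT and 0.619 and 0.282 CPM in the cKO libraries. Pecam1 and Cdh5 thus had lower values in cKO, and Tek had higher values. The summed level of the 6 was 11.0 and 9.66 CPM in the WT and 26.4 and 24.0 CPM in the cKO libraries. Its part in the change of Sparcl1 was not tested.

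Smoc1 (ENSMUSG00000021136, GRCm38 chr12:81026808-81186414, plus strand) and Smoc2 (ENSMUSG00000023886, GRCm38 chr17:14279506-14404790, plus strand) encode the secreted modular calcium-binding proteins, which share the extracellular calcium-binding domain of SPARC. They changed in opposite directions. Smoc1 stood at 37.2 and 36.7 CPM in the WT and 59.7 and 62.0 CPM in the cKO libraries, 1.65-fold higher in cKO (log2 fold change 0.72, SE 0.0654, 95% CI 0.56 to 0.88, adjusted p = 0.000629). Smoc2 stood at 33.7 and 42.2 CPM in the WT and 13.7 and 13.3 CPM in the cKO libraries, 2.81-fold lower in cKO (log2 fold change −1.49, SE 0.126, 95% CI −1.79 to −1.19, adjusted p = 0.000464). Neither gene overlapped between groups, and the 2 confidence intervals lay on opposite sides of 0. Within each library, the ratio of Smoc1 to Smoc2 in TPM was 0.889 and 0.701 in the WT and 3.50 and 3.77 in the cKO libraries, so that Smoc2 was the more abundant of the pair in WT and Smoc1 in cKO cells.

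The thrombospondins are large, multi-domain glycoproteins that bind calcium, collagen and cell-surface receptors. Thbs1 and Thbs2 are trimeric and known as inhibitors of angiogenesis, and Thbs1 is also known to activate latent TGF-β, whereas Thbs3 belongs to the pentameric subgroup with Comp. Thbs1 (ENSMUSG00000040152, GRCm38 chr2:118111876-118127133, plus strand) stood at 2641 and 2244 CPM in the WT and 2429.6 and 2437 CPM in the cKO libraries. The cKO values fell between the WT values, and the log2 fold change was −0.01 (SE 0.0849, 95% CI −0.21 to 0.20, adjusted p = 0.970). Its direction turned under other scalings, with 0.10 on log2(TPM + 0.1) and 0.12 without WT library 1, so no direction is given for it.

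Thbs2 (ENSMUSG00000023885, GRCm38 chr17:14665500-14694262, minus strand) was at 274.9 and 253.8 CPM in the WT and 224.0 and 214.0 CPM in the cKO libraries. The cKO libraries were below the WT libraries by a small margin, 1.21-fold lower (log2 fold change −0.27, SE 0.0668, 95% CI −0.43 to −0.11, adjusted p = 0.0255). This call was lost on the TPM scale (adjusted p = 0.161 with limma on log2(TPM + 0.1)), without cKO library 1 (adjusted p = 0.216) and without cKO library 2 (adjusted p = 0.337). Thbs3 (ENSMUSG00000028047, GRCm38 chr3:89215180-89226837, plus strand) had 408 and 443 counts in the WT and 593 and 756 in the cKO libraries, or 12.1 and 15.7 against 24.5 and 23.7 CPM. It was 1.74-fold higher in cKO, with no overlap (log2 fold change 0.80, SE 0.134, 95% CI 0.48 to 1.12, adjusted p = 0.00675), and the call was lost on the log2(TPM + 0.1) scale (adjusted p = 0.149). Thbs3 lies wholly within the span of Mtx1 on the opposite strand (780 to 1088 counts), and as the use of strand in counting is not stated in the sources, its value is uncertain. The ratio of Thbs1 to Thbs2 in TPM was 9.74 and 8.96 in the WT and 11.0 and 11.6 in the cKO libraries.

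Tnc (ENSMUSG00000028364, GRCm38 chr4:63959785-64047015, minus strand) encodes tenascin-C, a hexameric protein of developing and injured connective tissue that modulates the adhesion of cells to fibronectin. It was at 109.7 and 86.8 CPM in the WT and 171.6 and 171.5 CPM in the cKO libraries. Both cKO libraries were above both WT libraries, 1.75-fold on average (98.2 ± 16.2 against 171.5 ± 0.0980 CPM, SD, n = 2 each, log2 fold change 0.80, SE 0.110, 95% CI 0.54 to 1.07, adjusted p = 0.00311). Postn (ENSMUSG00000027750, GRCm38 chr3:54361109-54391037, plus strand) encodes periostin, a protein of periosteum and ligament that binds collagen, fibronectin and tenascin-C and assists collagen cross-linking. It was at 704.7 and 795.3 CPM in the WT and 507.2 and 490.6 CPM in the cKO libraries. These groups did not overlap either, with a level 1.50-fold lower in cKO (log2 fold change −0.59, SE 0.0746, 95% CI −0.77 to −0.41, adjusted p = 0.00237).

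Spp1 (ENSMUSG00000029304, GRCm38 chr5:104435118-104441050, plus strand) encodes osteopontin, an acidic phosphoprotein of bone that binds mineral and integrins and is made by osteoblasts, osteoclasts and macrophages. It was the most abundant of the 10 genes in every library, at 5863 and 14630.1 CPM in the WT and 5694 and 5626 CPM in the cKO libraries. WT library 2 stood alone at 2.50 times WT library 1, while WT library 1 was close to the cKO pair. By TPM the WT values were 6714 and 16163 and the cKO values 6864 and 6784, so that the groups overlapped on that scale, though not in CPM. The change did not pass the test (log2 fold change −0.86, SE 0.370, 95% CI −1.75 to 0.04, adjusted p = 0.131). Without WT library 2 the log2 fold change was −0.05 and without WT library 1 it was −1.36, so 1 library decided its size. Spp1 was called in both of these fits, in which the remaining WT library was assumed to vary as little as the cKO pair. With edgeR it was also called with the replicate block (adjusted p = 0.0451) and without the filter on low counts (adjusted p = 1.768e-61). Since the WT libraries differed 2.50-fold, the last value does not measure their spread, and Spp1 is left as not called. Macrophage markers summed to 15213 and 19847 CPM in the WT and 20255 and 20355 CPM in the cKO libraries. Lyz2 set this order. Without it the other 7 summed to 4229 and 3913 CPM in the WT and 4622 and 4641 CPM in the cKO libraries. The markers did not move together in WT library 2, in which Spp1 was highest. Lyz2, Cd14 and Csf1r were also highest there, at 15934, 363 and 1473 CPM, against 10984, 197 and 1332 CPM in WT library 1. Adgre1, Cd68, Itgam and Mrc1 were lowest there, and Ptprc was lowest in WT library 1. The part of macrophage RNA in the level of Spp1 was not tested.

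The list of genes related to these by family held 14 genes, of which 8 were expressed enough to be tested, and 3 of these were higher, 4 lower and 1 not called (median log2 fold change −0.28). Comp, the cartilage thrombospondin, fell from 761 and 829 CPM in the WT to 20.5 and 17.9 CPM in the cKO libraries (log2 fold change −5.37, adjusted p = 1.613e-06). Tnn, the tenascin of periosteum and tooth also called tenascin-W, fell from 281 and 654 to 45.4 and 46.8 CPM (log2 fold change −3.34, adjusted p = 0.00155). Ibsp, the mineral-nucleating bone sialoprotein of the family of Spp1, fell from 197 and 262 to 117 and 122 CPM (log2 fold change −0.94, adjusted p = 0.00334). The tenascins differed among themselves, since Tnr was lower as Tnn was (−2.35, adjusted p = 0.00678) and Tnxb was higher as Tnc was (3.22, adjusted p = 5.361e-05). Both rest on few reads. Tnr had 49 and 43 counts in the WT and 9 and 7 in the cKO libraries. Tnxb had 46 and 48 counts in the WT and 336 and 463 in the cKO libraries. In the family of Sparc, Fstl1 was higher (log2 fold change 0.42, adjusted p = 0.00652), Spock2 was not called, and Spock1 and Spock3 had at most 2 counts in any library. Of the family of Spp1, Dmp1, Mepe and Dspp, which are late osteoblast, osteocyte or tooth genes, had at most 10 counts.

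**Figure D3:**
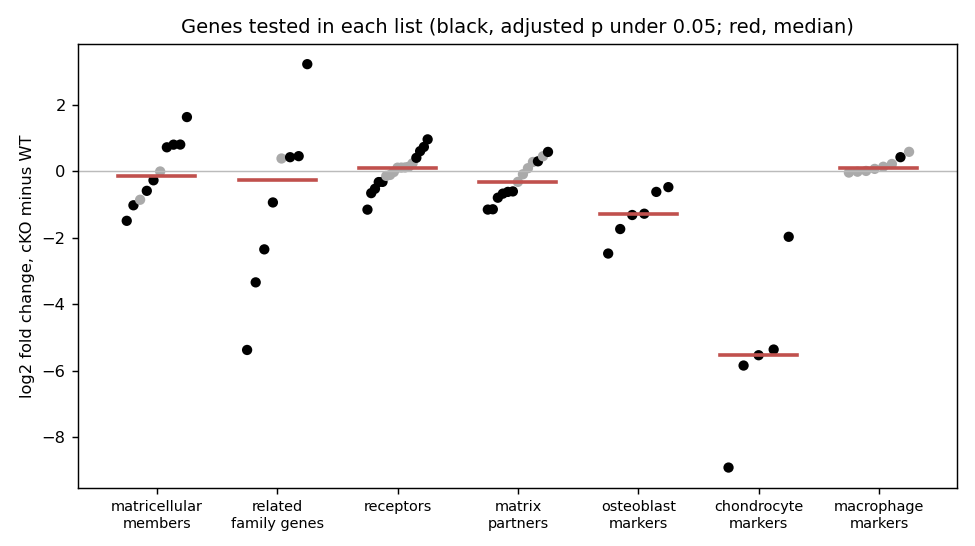
Log2 fold change (cKO minus WT, vertical axis) of every gene tested in the list of matricellular genes and in 6 comparison lists, with black points for an adjusted p under 0.05, grey points for genes not called and a red line at the median. The matricellular genes lie on both sides of 0 with a median of −0.14, the osteoblast and chondrocyte markers are all below 0 (medians −1.30 and −5.53), and 7 of the 8 macrophage markers are grey.

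Matricellular proteins act through cell-surface receptors. Of 17 receptors tested, 4 were higher, 5 lower and 8 not called (median log2 fold change 0.11). Among the integrin subunits, through which Spp1, Postn, Tnc and Thbs1 are bound, Itgb3 was higher in cKO (5.09 and 3.29 CPM in the WT, 8.09 and 8.31 CPM in the cKO libraries, log2 fold change 0.96, adjusted p = 0.0184) and Itga5 was lower (log2 fold change −0.32, adjusted p = 0.0118). Itgav, Itgb1, Itgb5, Itga4, Itga8 and Itga9 were not called. Sdc4, a heparan sulfate proteoglycan of focal adhesions, fell from 450 and 523 to 219 and 218 CPM (log2 fold change −1.15, adjusted p = 0.000242). Calr, which with Lrp1 forms a thrombospondin receptor complex at the cell surface, was lower (log2 fold change −0.53, adjusted p = 0.00225) and Lrp1 itself was higher (0.40, adjusted p = 0.0274). Stab1, the scavenger receptor of macrophages that takes up SPARC, was higher (2226 and 1631 CPM in the WT, 3192 and 3212 CPM in the cKO libraries, log2 fold change 0.73, adjusted p = 0.0101). The other calls were Egfr, which was higher, and Cd36 and Cd44, which were lower.

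Of 13 genes for bound matrix and its processing, 2 were higher, 6 lower and 5 not called (median log2 fold change −0.32). Fn1, the fibronectin to which Tnc and Postn bind, fell from 5341 and 3895 to 2092 and 2064 CPM (log2 fold change −1.15, adjusted p = 0.00199). Col1a2, a chain of the type I collagen to which Sparc binds, was at 1862 and 1759 CPM in the WT and 811 and 829 CPM in the cKO libraries (log2 fold change −1.14, adjusted p = 6.964e-05). Lox, the collagen cross-linking enzyme, had a log2 fold change of −0.61 (adjusted p = 0.000952). Col1a1, Serpinh1 and Ctsk were also lower, and Col3a1 and Mmp2 were higher.

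Other cell identities moved alongside. All 6 osteoblast markers were lower in cKO, with a summed level of 2019 and 2061 CPM in the WT and 1283 and 1315 CPM in the cKO libraries, led by Dlx5 (log2 fold change −2.47) and Sp7 (−1.74). Of 6 chondrocyte markers, 5 were tested and all 5 were lower, among them Acan (−8.91) and Col9a1 (−5.84), with a summed level of 2875 and 2877 CPM in the WT and 66.7 and 68.4 CPM in the cKO libraries. None of the chondrocyte, osteoblast, macrophage or endothelial markers was at 0 in any library. Of the 8 stromal markers 4 were higher and 4 lower, with Thy1 at 3.93 and 1.91 CPM in the WT and 74.7 and 69.4 CPM in the cKO libraries. Of the 5 megakaryocyte markers, 3 were tested and none was called by edgeR (0 of them at an unadjusted p under 0.05, 0 by DESeq2), their summed level was 4.25 to 14.2 CPM, and Ppbp was at 0 in 3 libraries. Of the macrophage markers 1 of 8, Ptprc, was called (0.42, adjusted p = 0.00333). The part of these shifts in the changes of the matricellular genes was not tested.

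The m6A peaks mark the stretches of these transcripts that the antibody enriched in WT cells. Of the 14118 tested genes in the mm9 annotation, 40.1% had at least 1 peak, as had 47.8% of the 8097 with a mean of at least 10 TPM and 38.4% of the 1436 with a mean of at least 100 TPM. Of the 13 summits, 9 lay in coding sequence, 2 in a 3′UTR, 1 in a 5′UTR and 1 in an intron. Each peak has the authors' pileup (fragments over the summit) and fold enrichment over the local background. The median fold enrichment of the 13 was 2.43 and that of all 10160 peaks 4.03, with 11 of the 13 below the median of all peaks. Their median pileup was 157 against 60 for all peaks, with 11 of the 13 above it. The list gives no replicate values, so no error can be set on these figures. Of the 6 genes with a peak 2 were higher in cKO (Sparcl1 and Tnc), 2 lower (Thbs2 and Postn) and 2 not called (Spp1 and Thbs1), and of the 4 genes without a peak 2 were higher (Smoc1 and Thbs3) and 2 lower (Sparc and Smoc2).

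**Figure D4:**
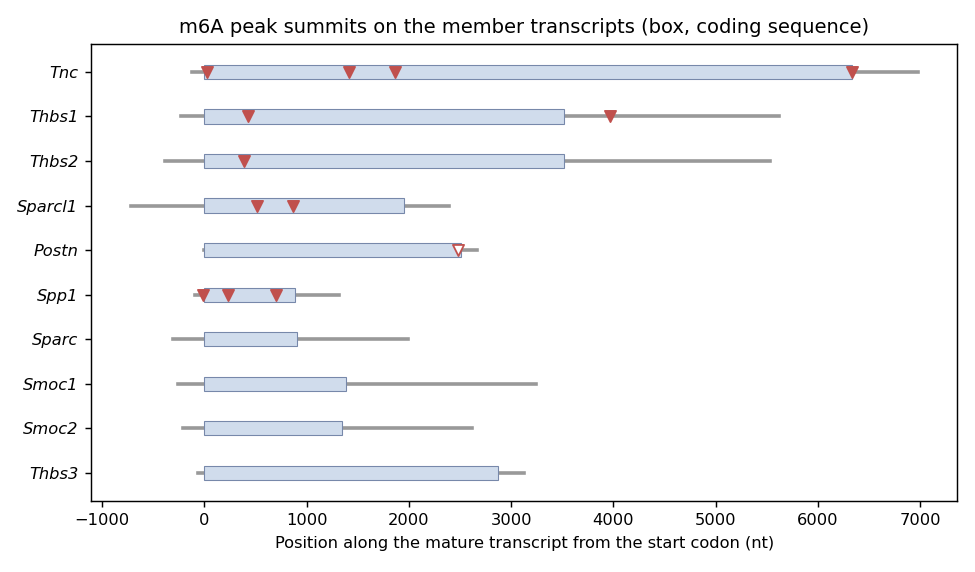
Position of the m6A peak summits (red triangles) along the mature transcripts in nucleotides from the start codon, with blue boxes for the coding sequence and grey lines for the UTRs. The hollow triangle marks the intronic summit of Postn next to its last exon, and the Thbs1 and Thbs2 summits at 426 and 383 nt stand close to each other.

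Sparcl1 stood apart from the others. Its peaks at mm9 chr5:104521534-104521846 and chr5:104521982-104522204 both lay in exon 4 of 11, which at 996 bases is its longest exon. The first had a fold enrichment of 13.2, higher than 99.1% of all peaks, at a pileup of only 18, and the second a fold enrichment of 5.97 at a pileup of 7. The printed GGAC was 16 bases from the first summit, and the first peak held 3 copies. Sparcl1 had the lowest level per length in WT cells of the 10 genes.

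Tnc had 4 peaks, and 2.11% of the tested genes had 4 or more. The widest ran from chr4:63677974 to 63679258 (1285 bases) with its summit in exon 2, the longest exon at 1410 bases, and held 7 copies of GGAC, with a fold enrichment of 2.43 and a pileup of 230. A summit in exon 1 lay 22 nt after the start codon, and another lay 5 nt after the start of the stop codon. They thus stood at opposite ends of the coding sequence of 6330 nt. Their fold enrichments were low, 1.73 in exon 1 (higher than 0.748% of all peaks) and 1.93 at the stop codon (2.28%, no GGAC). Exon numbers are those of the mm9 transcript. That gene model spans chr4:63620819-63681760, shorter than the GRCm38 span given above, and the exon 1 peak runs past it to 63681781. The summit in exon 3 had the highest fold enrichment of the 4, at 3.11, and its peak held no GGAC.

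The 3 peaks of Spp1 fell at 12 nt before the start codon (fold enrichment 3.74, pileup 85), in exon 7 of 8 (2.43, pileup 159) and in exon 8 at 187 nt before the stop codon (1.73, pileup 202). Fold enrichment fell and pileup grew from the 5′ to the 3′ end. The fold enrichment of the last peak was higher than that of only 0.827% of all peaks. At the first summit, the A of GGAC lay 1 base away. Of all tested genes, 5.38% had 3 or more peaks.

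Thbs1 and Thbs2 each had a peak at a similar place of the transcript. The Thbs1 summit lay 426 nt after the start codon in exon 3 of 22 (560 bases), and the Thbs2 summit 383 nt after the start codon in exon 3 of 22 (557 bases). The fold enrichments were 2.07 and 2.33 at pileups of 211 and 191, and each peak held 3 copies of GGAC.

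Thbs1 had a second peak in the 3′UTR, with its summit 455 nt after the start of the stop codon in the last exon, a fold enrichment of 2.39 and a pileup of 253, higher than 99.8% of all peaks. No peak of Thbs2 lay there. The Postn summit, at chr3:54194178, lay in the last intron, 6 bases before the last exon, with a fold enrichment of 3.47. Its peak of chr3:54194043-54194268 held no GGAC and ran on into the last exon and over the stop codon. In the transcript that exon starts after 2479 nt and the stop codon after 2514 nt. The sequence printed above shows the intron running into that exon.

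**Figure D5:**
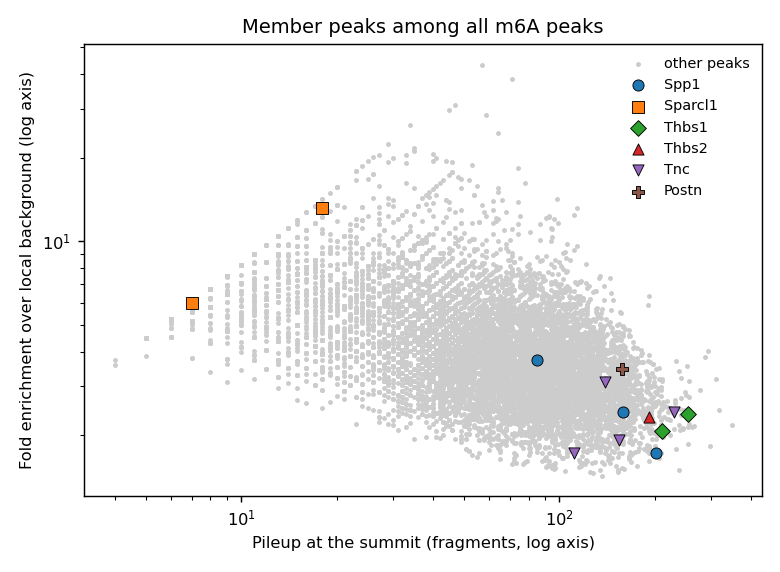
Pileup at the summit in fragments (horizontal log axis) against fold enrichment over the local background (vertical log axis) for all 10160 m6A peaks, with the 13 peaks of the matricellular genes in colour. The 2 Sparcl1 peaks lie at low pileup (18 and 7) and high fold enrichment, and the other 11 lie at pileups of 85 to 253 with a fold enrichment of at most 3.74.

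GGAC was found in 9 of the 13 peaks, in 86.7% of all 9397 peaks within genes, and in 66.7% of windows of the same length beside them, searched on the strand of the transcript. The 4 peaks without it were 1 of Sparcl1, 2 of Tnc and that of Postn. The genes without a peak also held GGAC, with 8 copies in the transcript of Sparc (3.48 per kb), 14 in Smoc1, 12 in Smoc2 and 27 in Thbs3 (8.46 per kb, the highest of the 10). The range over the 10 transcripts was 3.37 to 8.46 copies per kb.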

How the data were processed

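The authors trimmed RNA-seq reads, aligned them with HISAT2 (version 2.0.4 in the submitters' processing notes) and deposited 1 table with estimated counts and length-normalized values for 4 libraries. The counting tool and strand use are not given in the sources used here. The deposited values headed FPKM summed to 1000000 in each library and were treated as TPM. MeRIP-Seq reads were aligned with TopHat to mm9, and the deposited peak list (MACS2) holds pileup (signal), fold enrichment (ratio) and −log10 p and q values for WT MSCs, as 1 list whose pooling is not stated. Expression positions are GRCm38.

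The members and lists were chosen with earlier results of these data known. Counts were rounded to whole numbers (4035 to 4545 genes per library held a fraction), 89 entries with no gene name (0.110% to 0.125% of counts) were left out, and 15327 genes passed filterByExpr. The main test was edgeR 4.0.16 (R 4.3.3, TMM, glmQLFit and glmQLFTest, 2 against 2, no covariate), adjusted by Benjamini-Hochberg over all genes tested. The smallest exact two-sided permutation p with 2 against 2 libraries is 0.333. The scripts were tested on simulated data. Alternatives used DESeq2 1.42.0, limma 3.58.1 and the settings given in the closing section. All 10 members and Mettl3 were named, and from each other list the 3 genes of highest mean TPM and the 2 of largest change among those called. Tnr, Tnxb, Spock2, the genes under the count filter, other list members named with a direction, and Pecam1, Cdh5 and Tek were named after their values were seen. Counts, pileups and intervals cover counting error or library spread only. Peaks were placed by summit on the mm9 gene annotation (coding sequence before 3′UTR, 5′UTR and intron), and the 30-base windows were read from the mm9 genome. The window of Thbs2 is not reported here.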

Additional observations from a re-analysis of the deposited data

How the results depend on the processing

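Across 11 other settings Sparc, Sparcl1, Smoc1, Smoc2, Tnc and Postn kept their direction and their call, and Thbs2 lost its call in 5 and Thbs3 in 2. Spp1 gained a call in 4, and Thbs1 was called in opposite directions without WT library 1 (0.12) and without WT library 2 (−0.12). The count of the 10 genes called was 8, 7 to 10 without 1 library, 6 on either TPM scale, 7 with the cKO libraries summed to 1 sample and 3 with the study's criterion. That criterion left 4 related genes of 7, 1 receptor of 9 and 2 matrix partners of 8. Without 1 library the counts ranged from 4 to 7 for related genes, 4 to 15 for receptors, 7 to 13 for matrix partners and 11 to 23 for the 15 markers of other cell types. Receptors called were 5 on log2(TPM + 0.1) and 5 with the cKO libraries summed. At a fold enrichment of at least 3, 5 of the 13 peaks were left. The lowest of them, at 3.11 in Tnc, was higher than only 27.3% of all peaks, so most of all peaks pass this cutoff.

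The samples share only a replicate number (correlation of deviations 0.0320 over 15327 genes). With the replicate block 9 of the 10 genes were called, Spp1 being the addition (log2 fold change −0.71, adjusted p = 0.0451 with edgeR), and 4881 genes in all.

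Directions that turned were those of genes not called by the main test, except Vwf: Thbs1 (0.10 on log2(TPM + 0.1) and on log2(TPM + 1), 0.12 and 0.00076 without WT library 1 and cKO library 1, 0.0017 with the cKO libraries summed), and, with 1 library left out, Lyz2 (−0.017 to 0.51), Csf1r (−0.054 to 0.082), Cd68 (−0.12 to 0.30), Pf4 (−1.32 to 1.42) and Gp1bb (−0.19 to 1.05), and on the TPM scales Vwf (−0.24 and −0.19) and Pf4 (0.14 and 0.10). The causes were not tested. All genes called numbered 4677 by the main test (44.9% of them higher), 3862 with DESeq2, 3221 on log2(TPM + 0.1) (55.2% higher), 8750 and 7934 without WT library 1 or 2, 1904 and 1867 without cKO library 1 or 2, and 2012 with the cKO libraries summed. Where 1 library of a group is left out, the lone library is assumed to vary like the other pair, and the cKO pair varies little. Peaks of low pileup, such as those of Sparcl1, rest on few fragments.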

Other observations

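Sparcl1, Dspp, Dmp1, Ibsp, Mepe and Spp1 lie in that order between 104079111 and 104441050 on chromosome 5 (GRCm38). Sparcl1 on the minus strand was higher in cKO (log2 fold change 1.63) and Ibsp on the plus strand was lower (−0.94), while Dspp, Dmp1 and Mepe had at most 10 counts in any library. Smoc2 and Thbs2 also lie on the same chromosome, Smoc2 ending at 14404790 and Thbs2 starting at 14665500 on chromosome 17, and both were lower in cKO (log2 fold changes −1.49 and −0.27), the second a call that several settings removed.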
